A study of Rattus norvegicus with 15 samples.

Results

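The regions of rat chromosome 12 on a DNA methylation array were described in the peripheral blood of diabetic and control rats. All 3828 probes placed on chromosome 12 of the rn4 assembly were joined into runs wherever neighbours lay at most 500 bp apart, and the 446 runs that held 3 probes or more form the regions described, 2.66% of the 16782 on the whole array. Of 480 runs on the chromosome, 23 had 1 probe and 11 had 2 and were left out. All 446 regions had a value on every array, and no filter on low values was applied. The chromosome was chosen by measured values of these arrays, its high mean log2 ratio and a difference between diabetic and control rats that ran opposite to that of most chromosomes. Its mean level and that difference are therefore given as descriptions, without a test.

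Methylated DNA immunoprecipitation (MeDIP) recovers fragments that carry methylated cytosine with an antibody, and the recovered DNA (Cy5) is hybridised together with input DNA of the same rat (Cy3). In mammals most cytosines that precede a guanine (CpG) are methylated, while CpG-dense promoters usually lack methylation, and methylation at a promoter often goes with a silent gene. The antibody recovers a fragment better the more methylated CpGs it holds, so the log2(MeDIP/input) ratio depends on CpG density as well as on the share of methylated molecules. In whole blood, a change of methylation within cells and a change of the cell types present cannot be told apart.

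The 15 rats were male Sprague Dawley animals, 8 weeks old when bought and 20 weeks old by label, in 5 groups of 3 with 1 array per rat. Control rats received buffer only. The diabetic retinopathy model (DR model) was made with 45 mg/kg intravenous streptozotocin, which destroys the beta cells of the pancreas, and received distilled water. The other groups were streptozotocin rats given daily calcium dobesilate (CaD, a vessel-protecting drug) at 0.25 g/kg, another Chinese formula with no dose in the labels, or Luo-tong formula (LTF, the herbal formula after which the study is titled) at 2 g/kg daily. Insulin at 1.5 IU per day accompanied both CaD and LTF. No insulin is named for the DR model, so drug and insulin cannot be told apart. The labels do not say whether the rats given the other formula received insulin.

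Each array was centred on its median probe, and a region's value is the mean log2(MeDIP/input) ratio of its probes. A region's level is its mean over the 15 arrays. Values of the 446 regions correlated between arrays at 0.885 to 0.977. The DR model replicate 3 stood apart from the other DR model rats. The interquartile range of its chromosome 12 regions was 0.56, against 0.69 and 0.70 in the other DR model rats, 0.65 to 0.72 in controls and 0.51 to 0.62 in the treated rats. Counts of regions that passed against the DR model, and several single regions, are therefore given with and without this replicate. The arrays were read in 6 scans. All LTF arrays were in scan 4 and no other group was, so LTF and scan cannot be told apart. Scan 3 held all arrays of the other formula and CaD replicate 3. Scan 6 held DR model replicate 3 and CaD replicates 1 and 2, whose interquartile ranges were 0.52 and 0.54. No control shared a scan with a treated rat, and of the DR model only replicate 3 did. Differences of the treated rats from controls, and from the DR model without replicate 3, therefore cannot be told apart from scan. Outlier spots left out numbered 5 to 237 per array among the chromosome 12 probes, and the LTF arrays had the most, 170 to 237.

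The regions ran from position 732061 to 46722559. They held a median of 9 probes (range 3 to 20), covered a median of 1593 bp, and held 3783 probes in all. Their mean level was 0.12, against -0.11 over the 15629 regions of the other 19 autosomes, and 286 of the 446 (64.1%) lay above 0, against 46.9% elsewhere. This was the highest mean of the 22 chromosomes and groups of unplaced sequence, with chromosome 19 next at 0.11. With loess within arrays, chromosome 12 had rank 2 among the autosomes. Runs of 2 probes, just short of the limit, had a mean level of 0.23, and runs of 3 probes, just past it, 0.21.

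The array uses probes of 45 to 60 nucleotides (nt), and the ratio was lower on longer probes. On chromosome 12 the probes of 45 nt averaged 0.38 and those of 60 nt -0.71. The chromosome held more of the short ones: 61.6% of its probes were of 45 nt, against 49.1% on the other autosomes, and 5.8% were of 60 nt, against 13.5%. The mean probe length of its regions was 47.6 nt, as on chromosome 19, the shortest of the 20 autosomes. Regions of chromosome 12 exceeded those of the other autosomes by 0.23 on average over the 15 arrays (0.19 to 0.30). Against autosomal regions of the same mean probe length, in bins of 1 nt, the excess was 0.06 (0.04 to 0.08), or 26% of the unmatched value. It was above 0 on every array.

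**Figure D1:**
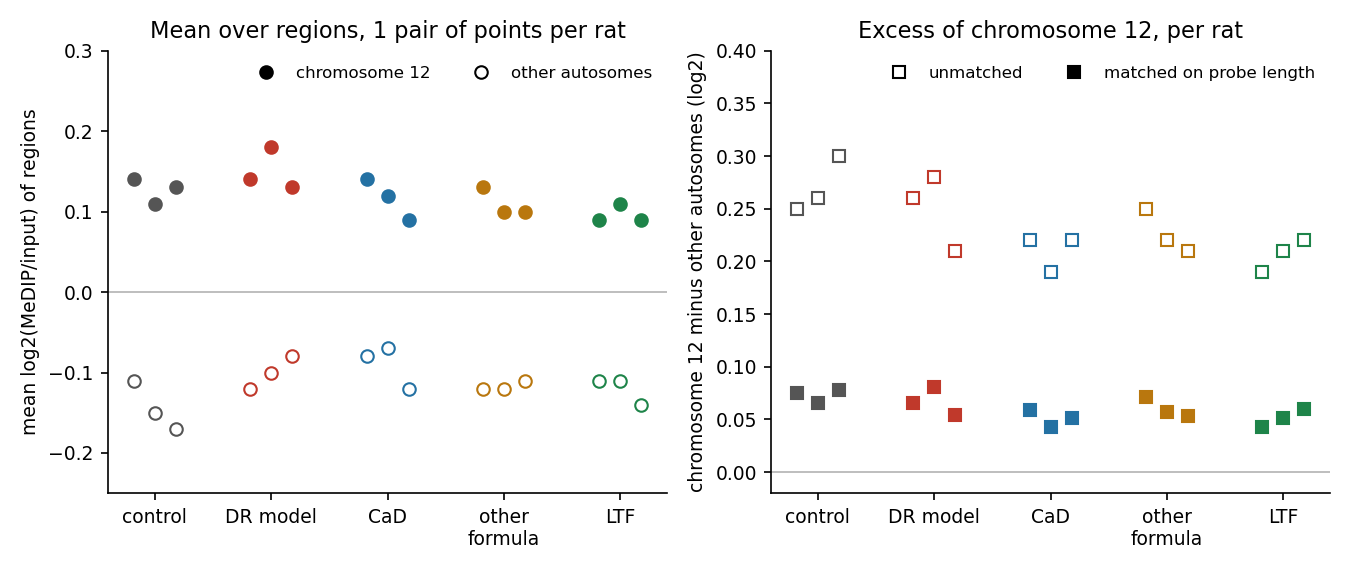
Left, the mean log2(MeDIP/input) ratio of chromosome 12 regions (filled) and of other autosomal regions (open) for each rat, by group; right, the excess of chromosome 12 before (open) and after (filled) matching on probe length. Chromosome 12 lies above the other autosomes on all 15 arrays, and matching on length takes the mean excess from 0.23 to 0.06.

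The length-matched excess was 0.0728 ± 0.00647 in controls and 0.0671 ± 0.0135 in the DR model (SD, n = 3 each). It was 0.0511 ± 0.00807 under CaD, 0.0602 ± 0.00924 under the other formula and 0.0515 ± 0.00837 under LTF (SD, n = 3 each). The groups overlapped, apart from the control arrays, each of which lay above every CaD and LTF array. In the separate channels the length-matched excess was 0.10 in the MeDIP signal (0.08 to 0.12) and 0.03 in the input signal (0.02 to 0.06). MeDIP signal was well above background for 83.3% to 93.6% of the chromosome 12 probes of an array, a higher share than on the other autosomes on 15 of 15 arrays. The share for the input signal was also higher, on 13 of 15 arrays. These shares were not matched on probe length.

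Among probes of equal length, the mean excess was uneven over bins of distance from the middle of the region. A bin held 149 to 229 chromosome 12 probes, and all 45-nt probes of the chromosome had an SD of 0.7. Differences between bins were not tested. In regions of at least 8 probes, the chromosome 12 probes of 45 nt averaged 0.28 within 100 bp of the region's middle, against 0.26 on the other autosomes. At 300 to 400 bp from the middle, where the gap was widest, they averaged 0.56, against 0.38. The means were 0.42 and 0.38 at 400 to 500 bp, and 0.39 and 0.28 at 700 to 800 bp. At 800 to 900 bp the means were 0.26 on both. The control rats had 0.60 at 300 to 400 bp and the diabetic rats 0.54, with 0.26 and 0.28 at the middle.

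**Figure D2:**
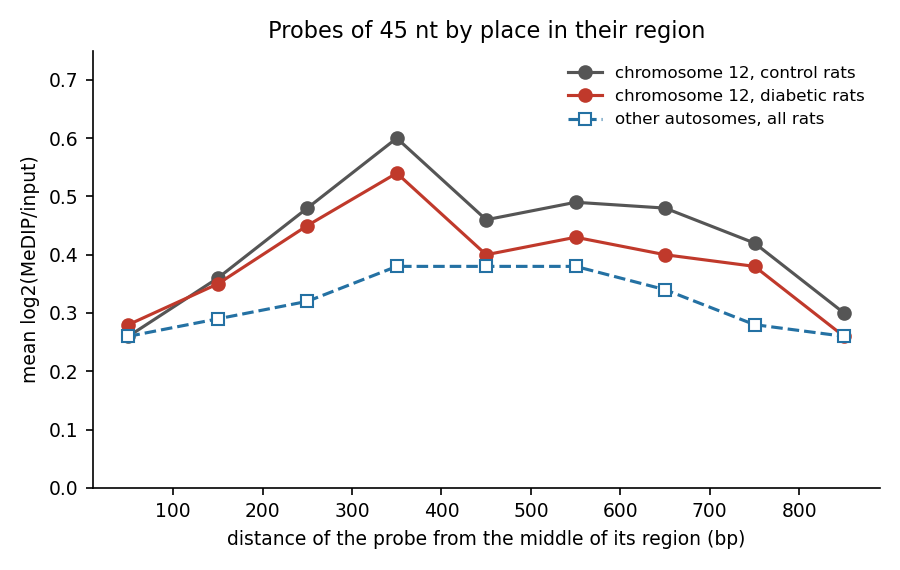
Mean log2(MeDIP/input) ratio of 45-nt probes against their distance in bp from the middle of their region, for chromosome 12 in control and diabetic rats and for the other autosomes in all rats; only regions of at least 8 probes are included. The chromosome 12 lines rise to 0.60 and 0.54 at 300 to 400 bp, while the other autosomes reach 0.38.

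Level was not uniform along the chromosome. In windows of 5 Mb the mean level ranged from -0.10 in the first (36 regions) to 0.28 between 40 and 45 Mb (58 regions). The latter window also had short probes, with a mean of 46.9 nt, and it exceeded length-matched autosomal regions by 0.14, as did the window from 10 to 15 Mb. The window from 45 Mb to the end, with 16 regions, differed from its length-matched regions by -0.13. Pairs of neighbouring regions at most 100000 bp apart correlated in level at 0.27 over 330 pairs on chromosome 12 and at 0.49 over 10819 pairs on the other autosomes pooled. It was the fourth lowest of the 20 autosomes: chromosome 6 had 0.07, chromosome 2 had 0.16 and chromosome 19 had 0.19. The pairs share arrays, and genomic neighbours overlap in sequence context.

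The highest level, 1.55, was that of the region chr12:7557853-7558584, with 5 probes. Its values were 1.53, 1.61 and 1.71 in controls, 1.80, 1.90 and 1.55 in the DR model, 1.59, 1.51 and 1.38 with CaD, 1.58, 1.49 and 1.32 with the other formula, and 1.41, 1.55 and 1.36 with LTF. All 15 arrays placed it far above the chromosome's mean, and the groups overlapped. The next were chr12:34961059-34962632, with 10 probes and a level of 1.29, and chr12:7556918-7557278, with 3 probes and a level of 1.26, which lies beside the highest one.

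The lowest level and the one after it were at the start of the chromosome, in regions of long probes. The region chr12:732061-733804, with a mean probe length of 57.2 nt, had a level of -1.82 and single values from -2.19 in control replicate 3 to -1.63 in control replicate 1. The region chr12:1140369-1141867 had -1.72 with probes of 56.4 nt on average. Both lay below autosomal regions of like probe length, by differences of -0.63 and -0.61. The next lowest levels were farther along: -1.5 at chr12:33364140-33364693, -1.47 at chr12:17277919-17279275 and -1.35 at chr12:9540599-9541679. Their mean probe lengths were 52.8, 58 and 52.4 nt.

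The promoters of the chromosome were described in the current assembly. Over RefSeq promoters of the GRCr8 assembly (250 bases before to 50 after each gene's start), chromosome 12 had the highest mean GC content of the 20 autosomes, 55.5%, and the highest mean CpG content, 4.54 per 100 bases. By the share of promoters with at least 5 CpG per 100 bases it was not first, with 37.2%, against 40.5% on chromosome 10 and 37.3% on chromosome 5. Chromosome 19, with nearly the same level and probe length, had 52.9% GC and 3.82 CpG per 100 bases, which ranked ninth and fifteenth. Across the 20 autosomes, mean level correlated with mean probe length at r = -0.94, with promoter GC at 0.61 and with promoter CpG at 0.45. These are descriptions over points that share the same arrays, and probe length is itself tied to base composition in array design. Probes could not be tied to these promoters because the builds differ.

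The mean of the 4 diabetic groups minus control had a median of -0.01 over the chromosome 12 regions, against 0.023 over those of the other autosomes, and its direction turned to 0.03 with normexp background correction. By mean, 18 autosomes lay above 0 and 2, chromosomes 12 and 19, below, while with normexp no autosome lay below 0 and with quantile normalization 12 did. The group medians against control on chromosome 12 were 0.025 in the DR model, -0.012 under CaD, -0.016 under the other formula and -0.043 under LTF. On the other autosomes they were 0.039, 0.035, 0.014 and 0.006. The 4 values share the control arrays.

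Single rats showed how small these shifts were. Against the mean of the 3 controls, the chromosome 12 median was 0.014, 0.054 and -0.001 in the DR model, 0.014, -0.021 and -0.032 under CaD, -0.005, -0.040 and -0.023 under the other formula, and -0.044, -0.025 and -0.054 under LTF. Each control against the other 2 gave 0.016, -0.019 and 0.011. The LTF rats all lay below the range of the controls, the other treated groups lay partly within it, and the DR model lay partly above it. Within scan 5, which held DR model replicate 1 and control replicates 2 and 3, the median difference between DR model and control was 0.015 on chromosome 12 and 0.039 on the other autosomes.

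The difference followed a region's level across the whole array. Over the 446 regions level and difference correlated at -0.49, and over the other autosomes at -0.58. The level is the mean of the same arrays that give the difference, so the measures are coupled. When all regions were divided by level into 5 bins of equal size, 34.5% of the chromosome 12 regions lay in the highest bin and 8.07% in the lowest. In the highest bin the median difference was -0.067 on chromosome 12 and -0.064 on the other autosomes, and in the lowest bin 0.098 and 0.167. Set against autosomal regions of the same level, in 20 bins, the mean difference of chromosome 12 was -0.009, and against those of the same probe length -0.015, while the unmatched gap was -0.045. The chromosome averages showed the same relation, with r = -0.95 over 20 autosomes and -0.94 without chromosome 12.

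**Figure D3:**
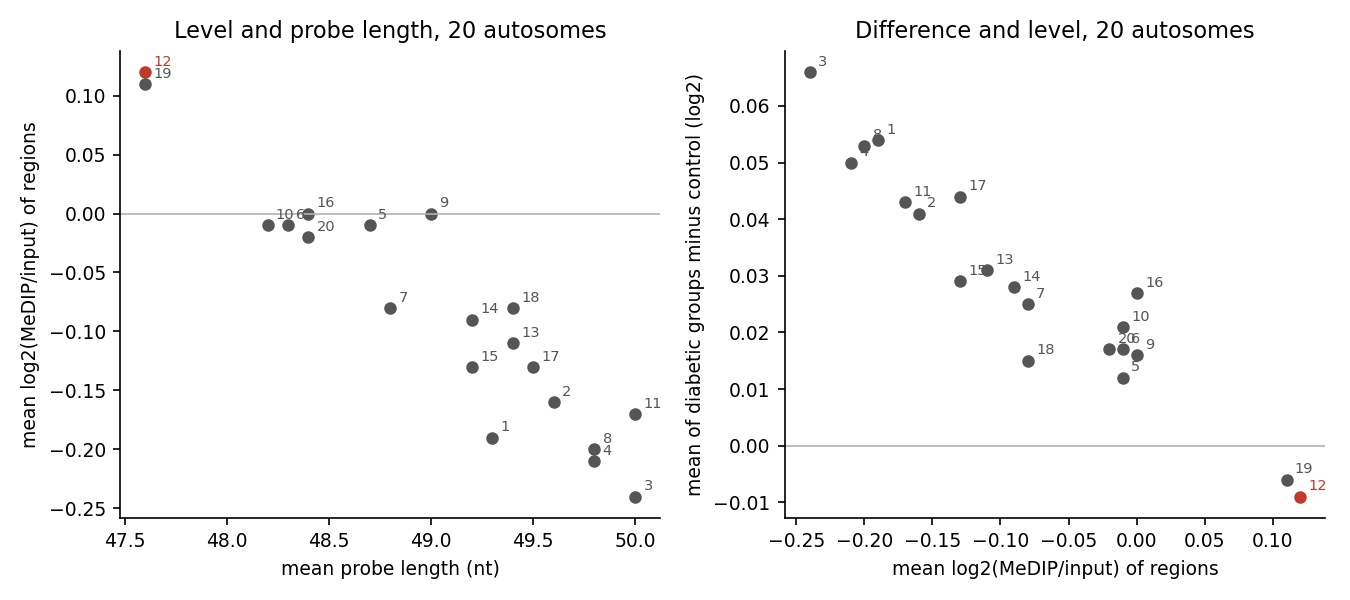
Each point is an autosome, labelled with its number: left, mean level (log2 ratio) against mean probe length in nt; right, mean difference between diabetic groups and control (log2) against mean level. Chromosome 12 (red) and chromosome 19 lie together at the end with the shortest probes, the highest level and the only differences below 0.

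**Figure D4:**
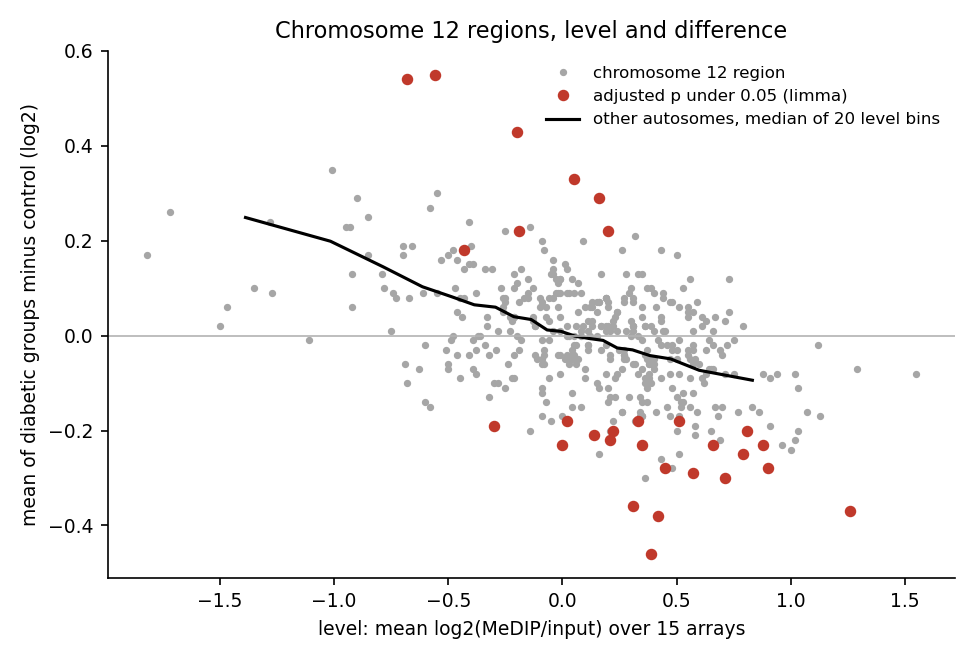
The difference between the mean of the 4 diabetic groups and control (log2) against level for the 446 chromosome 12 regions, with those past an adjusted p of 0.05 in limma in red; the black line joins the medians of other autosomal regions in 20 level bins. The points scatter around the line of the other autosomes, and 13 of the 21 red points below 0 lie in the highest of 5 level bins.

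The calls of this contrast are given as a description only, since the contrast was used to choose the chromosome, and nothing is read from them. An adjusted p under 0.05 in limma was found for 29 of the 446 regions (6.5%, against 8.71% of all regions). Of these, 8 were higher in diabetic rats, against 6.35% of all regions, and 21 lower, against 2.36% of all. As shares these were 1.79% and 4.71%, against 3.66% and 3.3% of autosomal regions of the same level. With scan as a random block 4 passed (1.69% of all), without control replicate 3 only 7 (1.63%) and without DR model replicate 2 as many as 61 (15.2%). The split turned to 34 higher and 8 lower with normexp background correction (12.4% of all regions in either direction). It was 2 and 13 with quantile normalization (3.34%), 14 and 67 with loess (19.8%) and 12 and 24 in the authors' deposited values (9.93%). Without DR model replicate 3, 28 passed (8.1%), 8 higher and 20 lower. In 10 regions all 12 diabetic rats lay on one side of all controls (3.51% of all regions), 3 above (2.54%) and 7 below (0.965%).

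Among regions lower in diabetic rats, chr12:34617633-34618659 had 7 probes. Its values were 0.58, 0.46 and 0.76 in controls, -0.14, 0.20 and 0.19 in the DR model, 0.36, 0.12 and 0.20 with CaD, 0.42, 0.24 and 0.29 with the other formula, and 0.34, 0.29 and 0.38 with LTF. Every diabetic rat lay below every control, and the difference was -0.36. The region chr12:12358038-12359405, with 8 probes, was likewise separated, with a difference of -0.23, but the authors' deposited values gave 0.01 for it.

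The lowest difference, -0.46, was in chr12:2489385-2491067, with 9 probes. Controls had 0.50, 0.90 and 0.88, the DR model 0.14, 0.17 and 0.38, CaD 0.41, 0.28 and 0.35, the other formula 0.51, 0.28 and 0.23, and LTF 0.52, 0.12 and 0.17. Control replicate 1 lay within the range of the treated rats, and the DR model lay below all controls. In chr12:36068994-36070614, also with 9 probes and a difference of -0.38, the controls had 0.85, 0.61 and 0.73 and the DR model 0.54, 0.78 and 0.48, which overlapped. The 9 treated rats, between 0.13 and 0.37, lay below all 6 others. Against the DR model this region did not pass in limma, with differences of -0.36 (CaD, adjusted p = 0.14), -0.32 (other formula, 0.121) and -0.33 (LTF, 0.0735). Without DR model replicate 3 all 3 passed, at 0.0164, 0.026 and 0.022.

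Among regions higher in diabetic rats, chr12:20761135-20761818, with 5 probes and a difference of 0.43, had -0.48, -0.82 and -0.32 in controls and -0.21, -0.36 and -0.13 in the DR model. The DR model overlapped the controls, and the treated rats lay between -0.20 and 0.07, above all controls. Adjacent regions differed in opposite directions. In chr12:21812244-21812760 (4 probes) controls averaged 0.67 ± 0.12 (SD, n = 3) and the 4 diabetic groups 0.28 less, with every diabetic rat below every control. In the next region, chr12:21813426-21813793 (3 probes), controls averaged -0.21 ± 0.20 (SD, n = 3) and the diabetic groups were 0.33 higher, with overlap. With gaps of up to 1000 bp joined, these neighbours became a single region, with a difference of -0.03. Over 330 neighbouring pairs the difference correlated at 0.03 on chromosome 12, the lowest of the 20 autosomes, against 0.31 over the pooled pairs of the others. Chromosome 19 had 0.05, chromosome 2 had 0.09 and chromosome 6 had 0.10.

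The comparisons of the treatments with the DR model share its 3 arrays. In limma, 4 of 446 chromosome 12 regions passed for LTF (0.897%, against 0.9% of all regions), 1 higher (0.238% of all) and 3 lower (0.661% of all). With scan as a random block, at an estimated correlation of 0.39 within scans, none passed (0% of all). No region passed for CaD (0% of all) or the other formula (0% of all), although 95 and 82 of the 446 had an unadjusted p under 0.05, against 15% and 15.1% of all regions. For LTF 107 did, against 19.4%. These leaned to lower values: 71 lower and 24 higher for CaD (8.54% and 6.44% of all regions), 65 and 17 for the other formula (10.9% and 4.21%), and 80 and 27 for LTF (12.9% and 6.55%). Among autosomal regions of the same level the shares of lower ones were 12.2%, 15.1% and 16.1%, and on chromosome 12 they were 15.9%, 14.6% and 17.9%. The groups did not overlap in 89 regions for CaD (16.4% of all), 98 for the other formula (18.6%) and 109 for LTF (20.3%). For the DR model against control no region passed (0% of all), 50 had an unadjusted p under 0.05 (12.7%) and 43 did not overlap (11.5%).

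The median difference from the DR model was -0.033 under CaD, -0.042 under the other formula and -0.075 under LTF, against 0.006, -0.019 and -0.023 over all regions. Against autosomal regions of the same level the means were -0.006, 0.004 and -0.014. Without DR model replicate 3, 53 regions passed for CaD (8.51% of all), 39 for the other formula (6.76%) and 46 for LTF (7.79%), and none for the DR model against control (0.0179%). Of the 53, 12 were higher and 41 lower, of the 39, 8 and 31, and of the 46, 10 and 36. Within scan 6, where CaD replicates 1 and 2 meet DR model replicate 3 alone, no region passed (0% of all) and 4 had an unadjusted p under 0.05 (1.67% of all). With a single DR model array, this count cannot be set against the 53. Without DR model replicate 1, or without LTF replicate 1, none passed for LTF (0% of all), nor without LTF replicate 2 or 3 (0.0298% of all in each).

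The region with the largest rise under LTF was chr12:20076362-20076997, with 4 probes. Its values were -0.91, -1.16 and -1.25 in controls and -1.29, -0.97 and -0.81 in the DR model. They were -0.52, -0.40 and -0.34 with CaD, -0.56, -0.38 and -0.49 with the other formula, and -0.31, -0.38 and -0.37 with LTF. The 9 treated rats all lay above the 6 control and DR model rats, and controls and DR model overlapped. LTF exceeded the DR model by 0.67 ± 0.11 (SE; limma, adjusted p = 0.0245), CaD by 0.60 ± 0.11 (0.105) and the other formula by 0.55 ± 0.11 (0.103), and only the first passed.

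The differences of its 4 probes were unequal. From the DR model to LTF the probe at 20076362-20076421 differed by 0.01, that at 20076583-20076627 by 0.41, that at 20076777-20076821 by 1.54 and that at 20076953-20076997 by 0.62. The MeDIP signal of the third probe was well above background in 1 of 3 controls, 2 of 3 DR model rats and all 9 treated rats, and the probe was an outlier spot on 2 arrays. Over the probes with a value on every array the difference was 0.35 (adjusted p = 0.0642 in limma), and over those above background on every array also 0.35 (0.0214). With scan as a random block it was 0.64 (adjusted p = 0.372), and over 25 alternatives the adjusted p ran from 0.00311 to 0.372, with 18 below 0.05. Some of the 18 left out a control, CaD or other formula array, which kept the difference at 0.67. Without DR model replicate 1 or 2 the adjusted p was 0.0844 and 0.0863 in limma. Without LTF replicate 1, 2 or 3 it was 0.073, 0.0569 and 0.0696. Without DR model replicate 3 the difference was 0.78 and passed (0.00318).

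The 3 regions that fell under LTF had levels above 0. In chr12:37287907-37289143, with 6 probes, the DR model had 0.45, 0.90 and 0.52 and LTF 0.13, 0.00 and 0.27, a difference of -0.49 (limma, adjusted p = 0.0398). LTF lay below all 12 other rats, while controls (0.71, 0.53 and 0.66) overlapped the DR model. The CaD values were 0.41, 0.37 and 0.34, and those of the other formula 0.47, 0.33 and 0.34.

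In chr12:42649336-42651023, with 10 probes, the DR model had 1.02, 0.93 and 0.88, LTF 0.56, 0.68 and 0.69, and controls 0.88, 1.01 and 1.02. The difference between LTF and DR model was -0.30 (limma, adjusted p = 0.0441), and all treated rats, at most 0.82, lay below all controls and DR model rats. In chr12:14691631-14692992, with 9 probes, the DR model had 0.29, 0.27 and 0.32 and LTF -0.12, 0.08 and -0.18, a difference of -0.37 (adjusted p = 0.0441 in limma). Here controls, at 0.18, 0.14 and -0.01, lay below the DR model, and LTF overlapped them. The probe with the lowest difference in this region, -0.93 at 14692301-14692360, was well above background on no array. Over probes above background on every array the region's difference was -0.20 (adjusted p = 0.1 in limma) and did not pass.

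Each of these 3 regions lost 1 probe to outlier spots on all LTF arrays. In the first and the last of them that probe was among the brighter ones, at 1.18 and 1.24 in the DR model. Over probes with a value on every array the differences were -0.38 (adjusted p = 0.0983), -0.32 (0.0634) and -0.31 (0.118) in limma, and none passed. Over 26 alternatives each, 10, 7 and 6 gave an adjusted p under 0.05, and the highest were 0.427, 0.451 and 0.462. Some of those that passed left out only a control array, which left the difference unchanged. Among the runs without 1 DR model or LTF array, only that without DR model replicate 3 passed in each region. Its adjusted p-values were 0.0149, 0.0162 and 0.0321 in limma.

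**Figure D5:**
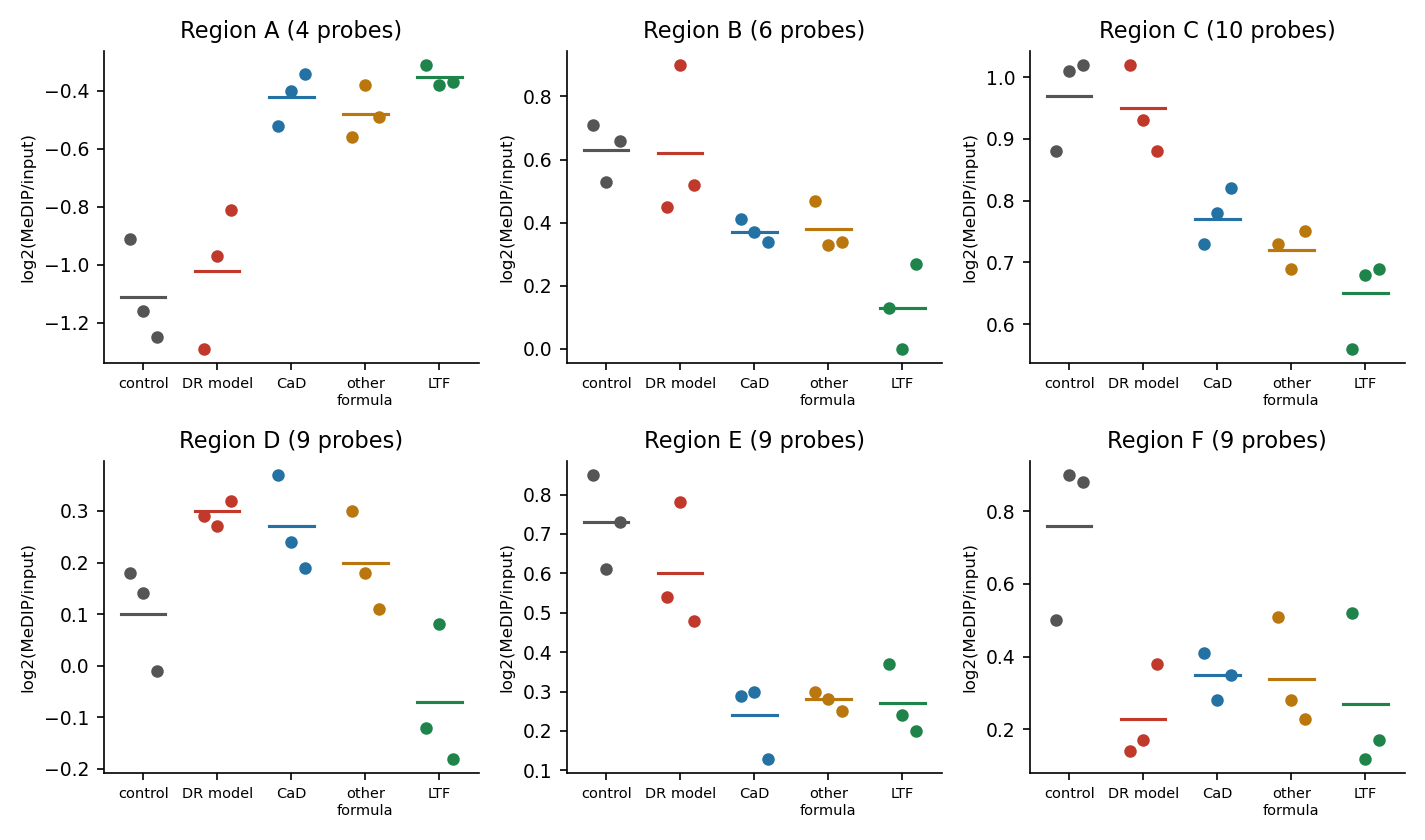
Region values (mean log2(MeDIP/input) ratio) of each rat in 6 chromosome 12 regions, with a bar at each group mean; the axes differ and do not start at 0. A is chr12:20076362-20076997, B chr12:37287907-37289143, C chr12:42649336-42651023, D chr12:14691631-14692992, E chr12:36068994-36070614 and F chr12:2489385-2491067. In A, C and E the 9 treated rats lie apart from the 6 control and DR model rats. Of those 6, only DR model replicate 3 shared a scan with treated rats. In F the DR model lies below all controls.

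Other regions were separated from the DR model but did not pass with all arrays. In chr12:42918990-42919990, with 7 probes, the DR model had 0.93, 1.01 and 0.60 and CaD 0.41, 0.50 and 0.43, a difference of -0.40 (limma, adjusted p = 0.113). Without the DR model's replicate 3, its lowest value, the difference was -0.52 (0.00224). In chr12:43371294-43373061, with 11 probes, the DR model had 1.28, 1.31 and 0.87 and the other formula 0.83, 0.69 and 0.67, a difference of -0.42 (0.103), and -0.56 (0.00299) without that replicate. In both regions the DR model overlapped the controls, and replicate 3 lay nearest to the treated rats. It was also the only DR model array in a scan with treated rats.

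The region chr12:36501574-36502197, with 4 probes, set the DR model apart from every other group. The DR model had 0.75, 0.91 and 0.67, controls 0.51, 0.55 and 0.45, CaD 0.55, 0.44 and 0.59, the other formula 0.38, 0.50 and 0.46, and LTF 0.40, 0.52 and 0.57. All 3 DR model rats lay above the 12 others. Against the DR model the differences were -0.25 (CaD, adjusted p = 0.196 in limma), -0.33 (other formula, 0.103) and -0.28 (LTF, 0.0788), so none passed. Without DR model replicate 3 they were -0.30 (0.032), -0.38 (0.0141) and -0.34 (0.0229). The DR model was 0.28 above control, which did not pass (limma, adjusted p = 0.158) and passed in 0 of 26 alternatives. The authors' deposited values gave 0.11 for this difference.

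In chr12:8192329-8194007, with 9 probes, the DR model had 0.19, 0.13 and -0.05 and controls -0.26, -0.15 and -0.25. The DR model lay above all controls, by 0.31 on average, and CaD, at -0.18, -0.16 and -0.19, lay within the controls' range. The difference between DR model and control did not pass (limma, adjusted p = 0.113), and the authors' deposited values gave 0.05 for it. In chr12:21584990-21586599, also with 9 probes, all 12 diabetic rats, between -0.23 and -0.03, lay above the controls, at -0.35, -0.49 and -0.25, and the difference was 0.22. In chr12:2933694-2935313, with 10 probes, the other formula had 0.49, 0.51 and 0.52 and the DR model 0.83, 0.89 and 0.72, a difference of -0.31 (limma, adjusted p = 0.103) that did not pass. The controls of that region, at 0.84, 0.77 and 0.77, lay within the DR model's range.

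The spread within groups (residual SD) was largest, at 0.39, in chr12:18124478-18125187, with 5 probes. Its control values, -0.58, -1.17 and -2.13, spanned those of all 12 diabetic rats, which lay between -1.40 and -0.63. The region with the most probes, 20, was chr12:43528396-43532089, where the residual SD was 0.06 and the 15 rats lay between 0.45 and 0.75.

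The named regions of CaD, 4 higher by 0.24 to 0.60 and 4 lower by differences of -0.36 to -0.40, had adjusted p-values between 0.105 and 0.224 in limma. Those of the other formula, 4 higher by 0.25 to 0.55 and 4 lower by -0.31 to -0.42, lay between 0.103 and 0.188. The region chr12:20076362-20076997 led the higher ones in all 3 treatments. Among the higher ones chr12:11002465-11004035, with 9 probes, was shared by CaD and the other formula. Its values were -0.47, -0.27 and -0.14 in the DR model, -0.12, 0.01 and -0.01 with CaD and 0.00, -0.07 and -0.06 with the other formula, with controls at -0.13, -0.09 and 0.00. Both treatments lay within or near the controls' range.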

How the data were processed

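Peripheral blood DNA of 15 rats was measured on 2-colour arrays, MeDIP DNA in Cy5 and input DNA in Cy3 per the labels. The deposited scanner files come from Feature Extraction 11.0.1.1 and place probes on rn4, per the file headers; they give intensities, background-subtracted and dye-normalised by the authors, and a log10 ratio. A file of the authors' deposited values, treated as a score since its log base is not stated, served as an alternative. After 6856 control spots and outlier spots were left out, the log2 ratio of the processed signals was centred on each array's median, with no loess or quantile step, and averaged over regions (gaps of at most 500 bp, at least 3 probes). Region means of all 16782 regions were fitted with limma 3.58.1 (lmFit, eBayes) in R 4.3.3 with the packages jsonlite 2.0.0 and data.table (1.17.8), a mean for each of 5 groups and a shared spread. P-values were adjusted by Benjamini-Hochberg over all regions of a comparison, with a threshold of 0.05. The fit was tested on simulated data.

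The chromosome, the regions and the lists were chosen with earlier results of these data known. Named regions were, for each of 5 comparisons, the 4 higher and the 4 lower regions of smallest p whose groups did not overlap, plus every region that passed, the 5 highest and 5 lowest levels, the 3 largest residual SDs and the 3 with the most probes; the text gives the first of each and some of the others. Pairs of adjacent regions were singled out after their values were seen. The number of arrays limits the precision. Alternatives covered background correction, normalization, outlier and dim spots, region definition, scan, the replicate number and leaving out each array; within-scan values and the use of probes with a value on every array were added after seeing the data. Genes and sequences are not given because neither is paired with the probes in the files used and the reference tables are on another build. Gene lists and matching on GC content were therefore not analysed here.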

Additional observations from a re-analysis of the deposited data

How the results depend on the processing

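The length-matched excess of chromosome 12, 0.06 as reported, was 0.031 with normexp background correction (on median signals), 0.045 with loess, 0.043 in the authors' deposited values and 0.233 without matching on length; leaving out single arrays gave 0.059 to 0.062. The median diabetic minus control difference, -0.01, was 0.03 with normexp and -0.042 with loess, and -0.022 to -0.006 without single arrays. Regions past the threshold for the DR model against control, 0 as reported, were 5 with loess (1.47% of all regions) and 0 to 1 without single arrays. With scan as a fixed block this contrast rests on scan 5 alone, which held 1 DR model array. Only its median difference on chromosome 12, 0.015, is therefore given. For CaD, 0 as reported, 1 passed with normexp (0.0298%), with quantile normalization (0.0179%), in the authors' values (0.0834%) and with probes above background on every array (0.095%), and 0 to 53 (up to 8.51%) without single arrays. For the other formula, 0 as reported, 2 passed with normexp (0.0894%), 4 in the authors' values (0.626%), 11 with probes above background (1.66%), and 0 to 39 (up to 6.76%) without single arrays. For LTF, 4 as reported, 15 passed with normexp (2.62%), 8 with loess (1.11%), 14 with outlier spots kept (1.94%), 23 with probes above background (4.66%), 1 over probes with a value on every array (0.14%), 0 with scan as a random block (0%), and 0 to 46 (up to 7.79%) without single arrays. Of the 4 reported regions, 3 also passed with normexp, 1 with loess, 2 with outlier spots kept and 2 with probes above background. None of them did over probes with a value on every array. For the diabetic groups against control, 29 as reported, 81 passed with loess (19.8%), 15 with quantile normalization (3.34%), 4 with scan as a random block (1.69%), and 7 to 61 without single arrays, the lowest when control replicate 3 and the highest when DR model replicate 2 was left out. With the replicate number as a block, 1 region passed for LTF (0.161%), chr12:20076362-20076997 (adjusted p = 0.0484 in limma), and 19 for the diabetic groups (5.94%); the rats share only a number, since same-numbered arrays correlated at -0.42 to 0.33 in their deviations and 2 of 15 correlated best with their own number. Of single regions, chr12:21543147-21544903 reversed to 0.01 with normexp and 0.07 with probes above background. The region chr12:12358038-12359405 reversed to 0.01 in the authors' values, and chr12:22207966-22209021 (other formula against the DR model) to -0.03 with scan as a fixed block. The cause of these changes was not tested. With gaps of up to 1000 bp, chr12:21813426-21813793 was joined with its neighbour chr12:21812244-21812760, and the joined region had -0.03. Scan as a fixed block could not be fitted for LTF, and matching on GC content was not run.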

Other observations

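The largest residual SD within groups, 0.39, was in chr12:18124478-18125187 (5 probes), where controls had -0.58, -1.17 and -2.13. The other 12 rats lay between -1.40 and -0.63, so control replicates 1 and 3 lay outside the range of all diabetic rats, on opposite sides. The largest region by probes, chr12:43528396-43532089 (20 probes), had a residual SD of 0.06, with controls at 0.56, 0.59 and 0.57, the DR model at 0.68, 0.75 and 0.55, and all treated rats between 0.45 and 0.58. In chr12:42696398-42696743 (3 probes, residual SD 0.28) the LTF rats had -0.10, 0.11 and 0.71, and the last of these lay among the controls.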
